A study of Rattus norvegicus with 36 samples.

Results

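The lungs of air-breathing rats at 12 weeks of chamber exposure were set against those of air-breathing rats at 3 weeks. The rats were chosen by their sample titles alone, 6 rats at 3 weeks and 6 others at 12 weeks, which makes 12 of the 36 rats of the study. All were male CDF Fisher 344 rats with a labelled age of 3 months, whether at the start or at the end is not said, and neither group received silica. In the other arm, rats inhaled crystalline silica at 15 mg/m3 for 6 hours a day on 5 days a week, and each duration (3, 6 or 12 weeks) had its own 6 air rats. Total RNA of the lung, 375 ng per labelling, was hybridised to Illumina rat BeadChips, 1 array per rat. A rat lung of this age still grows slowly. Collagen fibres and elastic fibres, laid down by fibroblasts, carry the airspace walls, and their turnover falls as a young animal matures. Immediate early genes are a separate group: they encode short-lived transcription factors and feedback regulators that rise within minutes of a stimulus.

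The weeks of exposure, the age of the rats, the day of necropsy and the processing of the arrays ran together. No label or file used here says which arrays shared a chip, so that week and array batch cannot be told apart. The mean raw intensity ran from 378 to 440 on the 3-week arrays and from 395 to 519 on the 12-week arrays, and 50.3% to 52.2% of the probes were detected on the 12 arrays. Replicate 5 of the 3-week air rats stood apart before any gene was considered. On the first principal component of all 36 arrays, which held 54.49% of the variance and set the 6-week arrays (22.7 to 29.8) against most others, it lay at 8.70, while the other 3-week air arrays lay between -14.9 and -14.6 and the 12-week air arrays between -16.5 and -14.7. Among the 12 air arrays alone, the first component (30.05% of the variance) kept the weeks apart, with 3-week arrays from -21.6 to -4.49 and 12-week arrays from 7.29 to 10.3. Without replicate 5, 92 of the 99 called genes named below kept their call. Lox, P4ha3, Igf1r, Igfbp2, Junb, Zfp36 and Ier2 lost it. The lung itself was plain in the markers: Sftpc, the surfactant protein C of type II pneumocytes, had levels of 12.46 to 13.06, and Scgb1a1, the secretory protein of club cells, 14.19 to 14.45 over the 12 rats. Levels are normalised log2 intensities of a gene's probe throughout, and differences are 12 minus 3 weeks on that scale, given with the standard error (SE) of the fit.

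Of 9078 genes tested, 1036 (11.4%) were higher and 923 (10.2%) were lower at 12 weeks at an adjusted p under 0.05, together 21.6%. The differences were small: 9 genes (0.0991%) were higher and 53 (0.584%) lower by 1.5-fold or more. Called genes whose 6 and 6 rats did not overlap numbered 317 higher (3.49%) and 419 lower (4.62%), and with calls set aside 8.59% of all genes had groups apart. At an unadjusted p under 0.05 stood 35% of the genes. Large falls lay mostly among dim probes. When the genes were ranked by mean signal, the dimmest 2270 (levels 4.62 to 5.47) held 29 of the 53 falls of 1.5-fold or more, and the brightest 2270 held 5. Of those 53 genes, 9 were not detected on any 12-week array. Among all 923 lower genes 130 were not detected on any 12-week air array. Among the 1036 higher genes 100 were not detected on any 3-week air array. A gene detected at 1 week alone entered the test through the arrays where it was high, which partly fixes its direction. The balance of rises and falls rested on the scaling: with each array scaled on its median over all probes, the median difference of all genes moved from 0.02 to 0.27, with 5598 genes higher and 393 lower. Scaling on the median of the tested genes, an alternative chosen after seeing the data, gave 1211 higher and 1728 lower. The size of a change also rested on the background correction, which sets how far a dim probe can fall. Of the called genes named below, all 43 with a mean level under 7 moved by over 1.5 times in size without background correction, with the background from all probes or in the authors' values, and 6 of the 56 brighter ones did (Adtrp, Fst, Gzmb, Mfsd13a, Sfrp2 and Sprr1a). All 99 kept their direction there. Small falls are therefore falls relative to the other genes of the array. Each of the named called genes stayed on its own side of the median of all genes under both median scalings and in the authors' processed values.

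**Figure D1:**
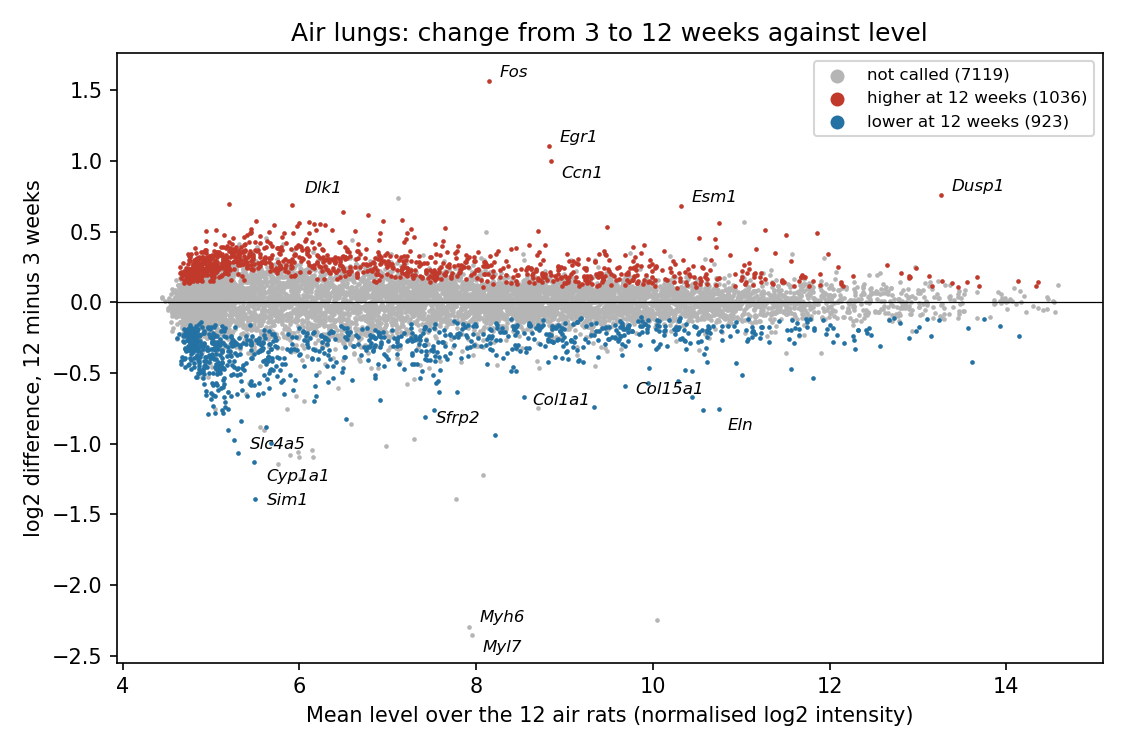
Difference between 12 and 3 weeks (log2, vertical axis) of the 9078 tested genes against their mean level over the 12 air rats (log2 intensity, horizontal axis), with the 1036 genes called higher in red and the 923 called lower in blue. Sim1, Slc4a5 and Cyp1a1 lie low at dim levels, Eln and Col1a1 lie low at bright levels, and the heart muscle genes Myh6 and Myl7 show the lowest labelled values without a call.

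The silica rats give the same span of weeks in other animals, though on arrays that share the week. There, 1370 genes (15.1%) were higher and 1465 (16.1%) lower at 12 weeks, together 31.2%. Of the 1036 genes higher in air rats, 384 were also called higher in silica rats, which is 37.1% of the air list and 28.0% of the silica list. Of the 923 lower in air rats, 599 were called lower in silica rats, or 64.9% of the air list and 40.9% of the silica list, and of the 53 falls of 1.5-fold or more 45 were. A gene that passed the detection filter through the 3-week arrays of both arms had its fall partly fixed in both. Replicate 3 of the 12-week silica rats lay apart on the first component, at 15.1, and without it the shared calls numbered 383, 600 and 44. The difference of the week effect between silica and air rats was called for 260 genes (2.86%).

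The interstitial collagens and small proteoglycans were lower at 12 weeks. Of the 16 genes of this list that were tested, 9 were lower and 0 higher, against 10.2% and 11.4% of all genes, and their median difference was -0.26 against 0.02 for all genes. Under median scaling the list's median turned to 0.10, which lay 0.17 under the shifted median of all genes. Col1a1, the alpha-1 chain of type I collagen, had levels of 8.65 to 9.11 at 3 weeks (median 8.86) and 8.04 to 8.40 at 12 weeks (median 8.21). Every 12-week rat lay below every 3-week rat, and the difference of -0.67 ± 0.10 (SE, n = 6 and 6, limma adjusted p = 6.4e-06) is a 1.59-fold fall. Col1a2, its partner chain in the type I triple helix, ran from 13.75 to 13.97 (median 13.79) at 3 weeks and from 13.14 to 13.64 (median 13.40) at 12 weeks. Those groups were apart as well, by -0.42 ± 0.07 (limma adjusted p = 2.83e-05).

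Col3a1, the chain of type III collagen that co-assembles with type I in distensible tissue, had levels of 10.05, 10.17 and 10.41 as lowest, median and highest at 3 weeks and 9.40, 9.68 and 10.12 at 12 weeks. The ranges overlapped, and the difference was -0.46 ± 0.10 (limma adjusted p = 0.00088). Sparc, a matricellular collagen-binding protein, fell from 12.68 to 12.79 at 3 weeks to 12.37 to 12.52 at 12 weeks without overlap (-0.31 ± 0.06). The other called members were Lum (lumican, -0.35), Ogn (osteoglycin, -0.29), Col5a1 (-0.27) and Col5a2 (-0.26), chains of the type V collagen that sets fibril width, and Col6a1 (-0.20), a chain of the beaded filaments around cells. Each of these overlapped between the weeks; Lum lost its call without replicate 6 of either week, and Col5a1 without replicate 3 of the 12-week rats. Not every matrix gene took part: Dcn (decorin) differed by -0.36 ± 0.14 without a call (adjusted p = 0.0677), Bgn (biglycan) by -0.16 (adjusted p = 0.082), and Fn1 (fibronectin) and Postn (periostin) by -0.06 and -0.03. In silica rats 10 of the 16 were lower and 0 higher, against 16.1% and 15.1% of all genes there, with a median of -0.31. The fall of Col6a1 was larger there (-0.52 against -0.20, adjusted p of the difference 0.0307).

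The upstream sequence of Col1a2 is given as that of a type I collagen chain held in the promoter table, and 7 of the 9 called members were in that table. It spans the 250 bases before the annotated start in RefSeq's GRCr8 assembly, chr4:33518307-33518556 on the plus strand. Capitals mark a CCAAT box, searched as CCAAT on both strands and here lying on the other strand, 221 to 217 bases before the start. A CCAAT was present in 2 of these 7 promoters (Col1a2 and Lum) and in 34.0% of all 33469 promoter entries.
Col1a2: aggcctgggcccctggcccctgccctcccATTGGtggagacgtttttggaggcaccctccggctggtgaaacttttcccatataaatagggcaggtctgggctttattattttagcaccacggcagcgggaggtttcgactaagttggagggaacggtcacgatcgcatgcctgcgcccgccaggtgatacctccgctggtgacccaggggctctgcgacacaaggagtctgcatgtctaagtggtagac

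Among the elastic fibre and crosslinking genes, 7 of 24 were lower and 1 was higher, against 10.2% and 11.4% of all genes, with a median of -0.08. Relative to all genes that median was -0.09, but under median scaling it was level with them (0.27 for the list and for all genes). Eln, which encodes tropoelastin, had levels of 10.75, 11.14 and 11.37 at 3 weeks and 10.05, 10.31 and 10.73 at 12 weeks as lowest, median and highest. The groups just failed to touch. The difference was -0.75 ± 0.12 (limma adjusted p = 1.74e-05), a 1.69-fold fall, and in silica rats it was -0.74 ± 0.12. The 6-week air rats were at 9.68 to 10.19, below all of the 3-week air rats, on the arrays that stood apart. Loxl2, a lysyl oxidase-like enzyme that crosslinks collagen and elastin, ran from 6.25 to 6.83 (median 6.50) at 3 weeks and from 5.49 to 6.19 (median 5.87) at 12 weeks. Its groups were apart by -0.66 ± 0.12 (limma adjusted p = 0.000144), though by -0.40 without background correction and -0.25 in the authors' values. The remaining falls were smaller and overlapped: Fbn1 (fibrillin-1, -0.33), Fbln5 (fibulin-5, -0.28), Loxl1 (-0.26), Lox (-0.24) and Mfap2 (-0.23). In silica rats Fbn1 differed by 0.00 ± 0.08, and the difference between the arms was not called (limma adjusted p = 0.0954). Its 3-week levels were 7.64 to 8.20 in silica rats and 8.16 to 8.56 in air rats. The 6-week air rats were at 6.34 to 6.74 for Loxl2 and 13.60 to 13.86 for the collagen gene Col1a2, both overlapping the 3-week rats. No order in time is read from the 6-week arrays. P4ha3, a collagen prolyl hydroxylase subunit, was the 1 rise (0.26 ± 0.09, adjusted p = 0.0377), and Mfap4, another microfibril protein, differed by 0.02. The calls of Lox, Mfap2, Fbln5 and P4ha3 were each lost without 1 or another rat: Lox without replicate 5 of the 3-week or 5 or 6 of the 12-week rats, Mfap2 without 3 of the 3-week or 1 or 5 of the 12-week rats, Fbln5 without 4 of the 3-week or 1 or 2 of the 12-week rats, and P4ha3 without 4 or 5 of the 3-week or 1, 2 or 4 of the 12-week rats.

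**Figure D2:**
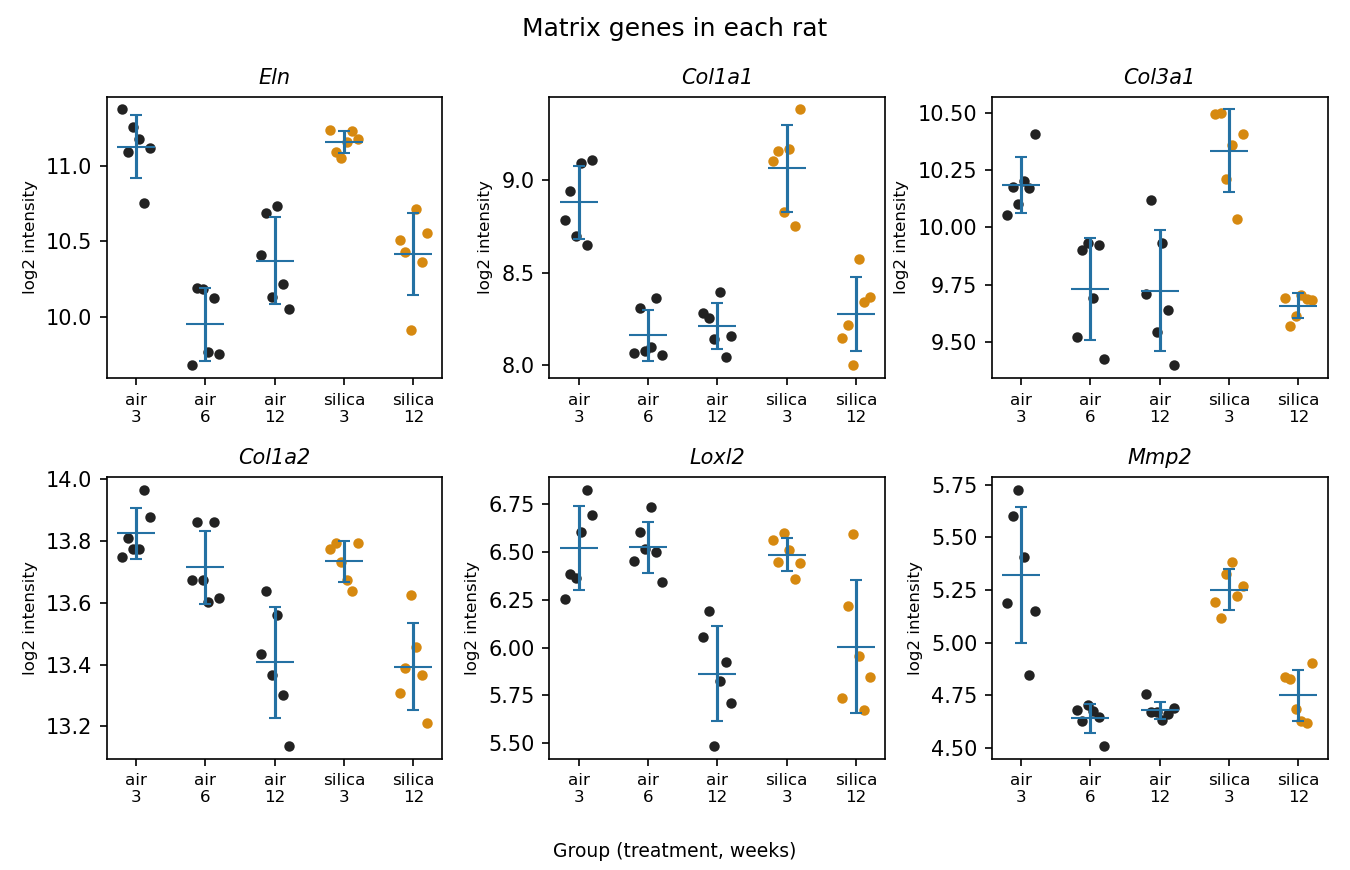
Levels (log2 intensity) of Eln, Col1a1, Col3a1, Col1a2, Loxl2 and Mmp2 in each rat of the air groups at 3, 6 and 12 weeks (black) and the silica groups at 3 and 12 weeks (orange), with the mean and SD of each group in blue. All 12-week air rats lie below all 3-week air rats for each gene but Col3a1, and Mmp2 was not detected on any 12-week air array.

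Enzymes that cut the matrix gave few calls. Of 21 matrix proteases and inhibitors tested, 3 were lower and 1 higher, or 19% called against 21.6% of all genes, so the list as a whole was near the background. Mmp14, the membrane-bound collagenase that activates gelatinase A, ran from 10.49 to 10.72 at 3 weeks (median 10.60) and from 9.77 to 10.39 at 12 weeks (median 10.13). Its groups were apart by -0.48 ± 0.08 (limma adjusted p = 3.75e-05). Mmp2, that gelatinase, was at 4.85 to 5.73 and detected in 5 of the 6 rats at 3 weeks, and was not detected in any at 12 weeks. Under the reported background correction its fall was at least 1.54-fold (limma adjusted p = 1.44e-06), measured against the background of the 12-week arrays. The fitted difference was -0.64, but -0.14 in the authors' values. Timp2, an inhibitor that also takes part in this activation, fell by 0.30 ± 0.07 with groups apart. Its silica difference was 0.05 (limma adjusted p of the difference between the arms 0.0552). At 3 weeks its levels were 8.45 to 9.06 in silica rats and 9.05 to 9.30 in air rats. Plau, the urokinase plasminogen activator, rose by 0.30 ± 0.07, from 6.08 to 6.31 at 3 weeks to 6.33 to 6.65 at 12 weeks. In the basement membrane list 2 of 9 were lower and 1 higher, against 10.2% and 11.4% of all genes. The clearest was Col15a1, a collagen at the border of basement membrane and interstitium. It fell from 9.92 to 10.13 at 3 weeks to 9.04 to 9.54 at 12 weeks (-0.59 ± 0.10, limma adjusted p = 3.03e-05).

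Immediate early genes were higher at 12 weeks in some of the rats. Of the 20 tested, 9 were higher and 0 lower, against 11.4% of all genes, with a median difference of 0.36 and of 0.43 above the median of all genes under both median scalings. Fos, the AP-1 transcription factor subunit, had levels of 6.86, 7.26 and 8.16 as lowest, median and highest at 3 weeks and 7.53, 8.93 and 10.49 at 12 weeks. The 12-week rats spanned a far wider range, with replicates 1, 3 and 6 at 9.62 or more and the other 3 within or next to the 3-week range. The difference was 1.57 ± 0.49 (limma adjusted p = 0.0198) and lost its call without replicate 1, 3 or 6 of the 12-week rats. Egr1, a zinc-finger factor, was at 7.61, 8.0 and 9.77 at 3 weeks and at 8.38, 9.29 and 10.997 at 12 weeks. It overlapped widely and differed by 1.11 ± 0.37 (limma adjusted p = 0.0289), a call that was lost without replicate 1, 3 or 4 of the 3-week rats or replicate 1, 3 or 6 of the 12-week rats.

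Ccn1, a matricellular protein induced by stretch and growth factors, ran from 8.0 to 8.86 at 3 weeks and from 8.73 to 10.38 at 12 weeks, and overlapped only slightly (1.0 ± 0.26, limma adjusted p = 0.00607). Dusp1, the phosphatase that shuts off MAP kinases, ran from 12.53 to 13.71 (median 12.82) and from 13.17 to 14.36 (median 13.59). The 3-week value of 13.71 belonged to replicate 2 alone, and the difference was 0.76 ± 0.19 (limma adjusted p = 0.00459). Junb differed by 0.56 ± 0.19 (adjusted p = 0.0339). Zfp36, which destabilises cytokine mRNAs, and Ier2 differed by 0.48 ± 0.17 and 0.46 ± 0.15; both are named because of their promoters, after their values were seen. Junb lost its call without replicate 1, 4 or 5 of the 3-week rats, Zfp36 and Ier2 without 3, 4 or 5 of them, and all 3 genes without replicate 1, 3 or 6 of the 12-week rats. Egr1, Junb, Zfp36 and Ier2 also lost their call when the 12 air arrays were fitted alone and with array weights. Zfp36 lost it in the authors' values as well. Jun missed the threshold at 0.30 ± 0.11 (adjusted p = 0.0584). The same rats carried the rises: replicates 1, 3 and 6 were the 3 highest of the 12-week rats for 8 of the 9 called genes, and replicate 3 was the highest for all 9. At 3 weeks replicate 2 was the highest for 7 of the 9. Without replicate 3 of the 12-week rats 2 members of the list were called, and without replicate 5 of the 3-week rats 5 were. In silica rats 4 of the 20 were higher and 0 lower, against 15.1% and 16.1% of all genes there, with a median of 0.23. There Fos differed by 0.56 (adjusted p = 0.392), Egr1 by 0.27 and Ccn1 by 0.09, none of them called; the differences from the air rats were not called either (adjusted p = 0.392, 0.346 and 0.139). In the 6-week air rats Fos lay between 5.90 and 6.67, below all 3-week air rats.

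**Figure D3:**
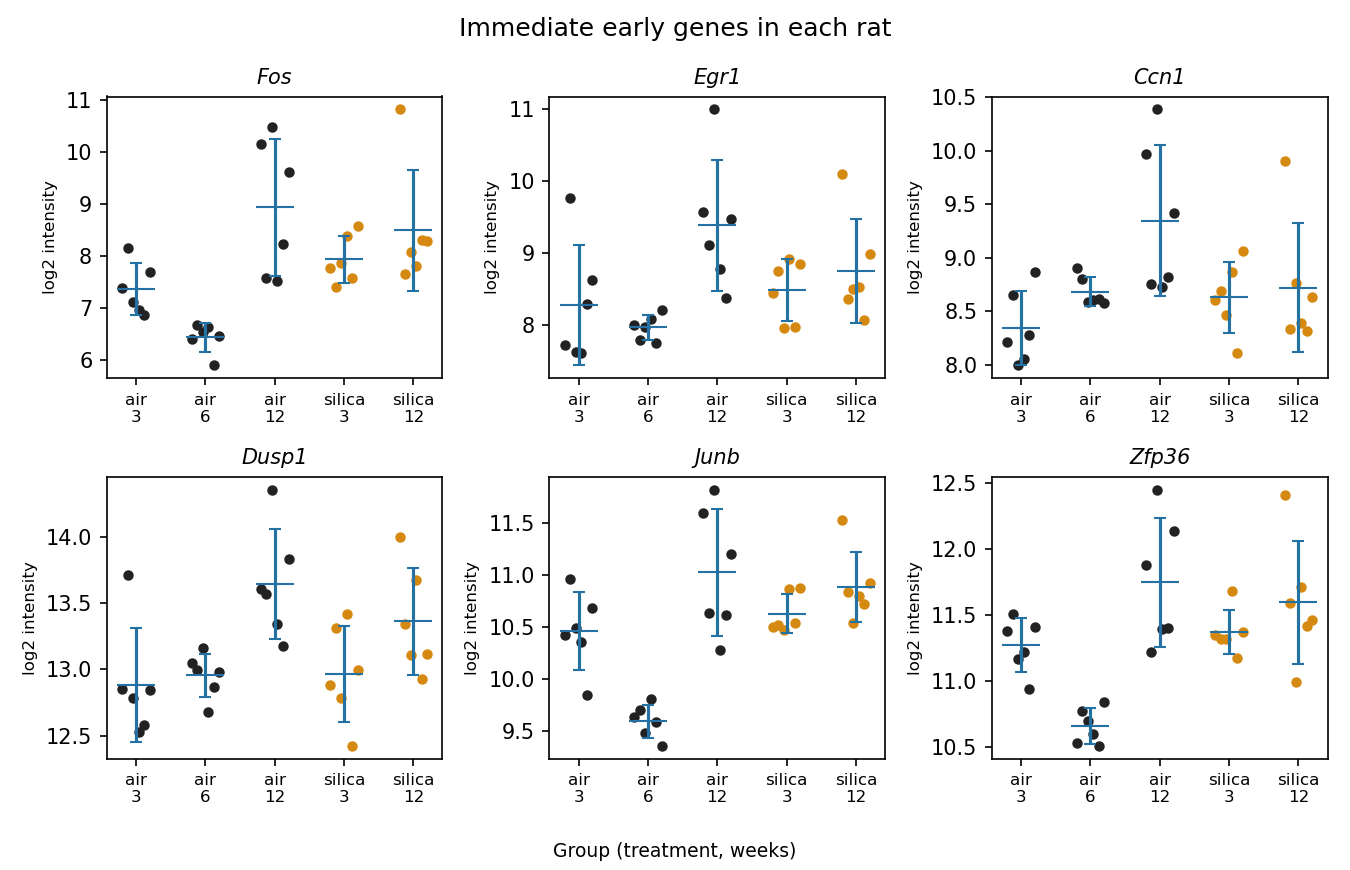
Levels (log2 intensity) of Fos, Egr1, Ccn1, Dusp1, Junb and Zfp36 in each rat, with groups, colours and mean ± SD as in the plot of the matrix genes by rat. In the 12-week air group a few rats reach high values (Fos 10.49 at most) and others stay near the 3-week range, and the 6-week air rats are close together.

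Promoters of this group are shown because its members moved together in the same rats. The table held 6 of the 9 called genes, and the 4 below are those with a match to either of the response elements searched. All are 250 bases up to the annotated start in RefSeq's GRCr8: Egr1 at chr18:26736828-26737077 (plus strand), Zfp36 at chr1:92799109-92799358 (minus), Dusp1 at chr10:17184603-17184852 (plus) and Ier2 at chr19:40399123-40399372 (plus). In Egr1 and Zfp36 capitals mark CArG boxes, the element bound by serum response factor, which lie 105 to 96 and 83 to 74 bases before the start of Egr1 and 32 to 23 before that of Zfp36. In Dusp1 and Ier2 they mark the cAMP response element TGACGTCA, 124 to 117 and 66 to 59 bases before the start. Both strands were searched, and the elements did not overlap. A CArG box was present in 1.5% and the cAMP response element in 1.59% of all 33469 entries. A match is a description of the letters and not of binding.
Egr1: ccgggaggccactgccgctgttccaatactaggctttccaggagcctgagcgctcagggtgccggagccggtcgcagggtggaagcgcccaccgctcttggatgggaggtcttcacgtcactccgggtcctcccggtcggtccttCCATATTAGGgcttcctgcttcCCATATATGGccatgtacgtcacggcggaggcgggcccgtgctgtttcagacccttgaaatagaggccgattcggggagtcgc
Zfp36: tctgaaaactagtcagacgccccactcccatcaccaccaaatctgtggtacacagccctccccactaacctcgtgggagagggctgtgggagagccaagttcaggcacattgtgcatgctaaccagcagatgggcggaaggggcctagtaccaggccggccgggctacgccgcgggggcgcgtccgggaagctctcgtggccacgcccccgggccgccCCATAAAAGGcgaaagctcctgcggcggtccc
Dusp1: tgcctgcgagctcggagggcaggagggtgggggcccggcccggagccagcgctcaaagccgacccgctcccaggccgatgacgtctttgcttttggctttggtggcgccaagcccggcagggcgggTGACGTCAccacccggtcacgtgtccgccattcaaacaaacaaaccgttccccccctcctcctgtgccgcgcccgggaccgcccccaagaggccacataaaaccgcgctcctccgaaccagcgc
Ier2: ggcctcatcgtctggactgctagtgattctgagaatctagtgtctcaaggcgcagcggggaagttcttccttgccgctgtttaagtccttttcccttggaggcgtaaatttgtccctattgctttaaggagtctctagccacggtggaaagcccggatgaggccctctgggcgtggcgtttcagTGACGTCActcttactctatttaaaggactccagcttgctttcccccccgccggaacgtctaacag

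Most of the largest falls with groups apart were also called in silica rats and belonged to dim probes. Sim1, a bHLH-PAS transcription factor known from hypothalamic neurons, was at 6.09, 6.17 and 6.30 as lowest, median and highest at 3 weeks and at 4.64, 4.77 and 5.00 at 12 weeks. Each group was tight and they were far apart, with a difference of -1.39 ± 0.07 (limma adjusted p = 3.96e-16); it was -1.62 ± 0.07 in silica rats. The 6-week air rats lay at 4.69 to 5.01, like the 12-week rats, and 2 of the 6 rats at 12 weeks had a detected signal. The difference was -0.73 without background correction, -0.37 in the authors' values and -0.16 with the background from all probes. Slc4a5, a sodium bicarbonate cotransporter, fell from 5.50 to 6.13 at 3 weeks to 4.66 to 4.93 at 12 weeks (-1.07 ± 0.08; -1.13 in silica rats). Next came Arhgap31 (a GTPase-activating protein, -0.99), Strn (striatin, -0.98), Ccnt1 (cyclin T1, -0.90), Or7g21 (an olfactory receptor, -0.88) and Tchp (trichoplein, -0.84). Asip, Rmnd1 and Jakmip3 were not detected on any 12-week air array, and Rmnd1 and Jakmip3 were detected on 3-week arrays alone. Under the reported background correction the falls of Asip, Rmnd1 and Jakmip3 were at least 1.70-fold, 1.68-fold and 1.62-fold. In the authors' values their differences were -0.17, -0.17 and -0.18. Hoxb1, Ghrl (ghrelin) and Syce1, a meiotic protein, fell by 0.76, 0.75 and 0.74. Of the 15 largest falls, 14 were also called lower in silica rats, against 16.1% of all genes there. Rmnd1 and Jakmip3 passed the detection filter through 3-week arrays of air and silica rats alone, and others, such as Ccnt1 and Ghrl, mostly so. That partly fixed their fall in both arms. The mean of the 6-week air rats lay below every 3-week air rat for all 15. That 6-week count has no share of all genes beside it. The genes were picked for high 3-week rats, and the 6-week arrays stood apart, so no order in time is read from the count. On 12-week arrays 12 of the 15 were not detected in every rat. Over the 95 olfactory receptor genes that passed the detection filter, a family looked at after its values were seen, 32 were lower and 15 higher, against 10.2% and 11.4% of all genes. Of these 95, 82 were among the dimmest 2270 genes, where 14.3% were lower and 16.1% higher, and 19 were not detected on any 12-week array.

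Cyp1a1 was the 1 of these 15 falls not called in silica rats. This cytochrome P450 is the classic target of the aryl hydrocarbon receptor. It had levels of 5.57, 6.09 and 6.44 at 3 weeks and 4.56, 4.93 and 5.23 at 12 weeks, and no 12-week rat reached the 3-week range. The difference was -1.13 ± 0.21 (limma adjusted p = 0.000146), and 3 of the 6 rats at 12 weeks had a detected signal. Without background correction it was -0.60, in the authors' values -0.31 and with the background from all probes -0.13. In silica rats it was -0.16 ± 0.21 and not called, and the difference between the arms just missed the threshold (0.97 ± 0.29, limma adjusted p = 0.0568). The 3-week silica rats were at 4.94 to 5.32, apart from replicate 4 at 6.70. The 12-week silica rats were at 4.81 to 5.57.

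The 15 largest rises with groups apart were smaller, between 0.51 and 0.70. In silica rats 10 of them were also called higher, against 15.1% of all genes there. The mean of the 6-week air rats lay above every 3-week air rat for 3 of the 15 and below every one for 4. Here too, no order in time is read from the counts. Of the 15 genes, 13 had a mean level under 7. Clasrp, a splicing-related protein, rose from 4.73 to 5.03 at 3 weeks, where 2 of 6 rats had a detected signal, to 5.48 to 5.71 at 12 weeks (0.70 ± 0.09, limma adjusted p = 3.6e-07; 0.16 in the authors' values). Dlk1, an imprinted Notch ligand relative expressed in growing tissues, was at 5.16, 5.57 and 6.01 at 3 weeks and 6.07, 6.29 and 6.41 at 12 weeks. The air groups were apart by 0.69 ± 0.13 (limma adjusted p = 0.00024). Its difference was 0.22 in the authors' values. It was not detected on any of the 18 silica arrays and was at 4.38 to 4.66 there at 3 and 12 weeks, so that a week effect in silica rats could not be measured; the fitted difference of the week effects (-0.78 ± 0.18, adjusted p = 0.0238) compares the air rats with background. Tmem100, an endothelial membrane protein downstream of BMP and ALK1 signals, rose from 5.60 to 5.76 at 3 weeks to 6.05 to 6.48 at 12 weeks (0.56 ± 0.09; 0.47 in silica rats). Npr3, the natriuretic peptide clearance receptor, rose by 0.58 and Sstr1, a somatostatin receptor, by 0.62. Adtrp rose by 0.58, the lipid transporter Abca7 by 0.55, and Btrc, an F-box protein of beta-catenin turnover, by 0.57. Tac1, the substance P precursor, rose by 0.55, Col6a4 by 0.57, Mylk2 by 0.55, Gnl1 by 0.54, Mfsd13a by 0.52, the plasma selenium carrier Selenop by 0.51 and the interferon-related Slfn4 by 0.51. Btrc and Gnl1 rose less in silica rats (adjusted p of the difference 0.049 and 0.0427).

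Growth and patterning signals changed in both directions. In the Wnt, Notch and hedgehog list 6 of 25 were lower and 4 higher, against 10.2% and 11.4% of all genes, with a median of -0.12 that stayed below the median of all genes under each scaling. Without replicate 5 of the 3-week rats 2 were higher, and over all rats left out in turn 4 to 6 were lower. Hhip, which binds and restrains hedgehog ligands, was at 10.44 to 10.85 (median 10.51) at 3 weeks and 9.84 to 10.22 (median 10.01) at 12 weeks. Its groups were apart by -0.55 ± 0.08 (limma adjusted p = 2.99e-06). Sfrp2, a secreted Wnt modulator of fibroblasts, ran from 7.45 to 8.23 and from 6.66 to 7.52, overlapping slightly (-0.81 ± 0.21, limma adjusted p = 0.0063). Dkk2, a Wnt antagonist, fell by 0.33, and Jag1, a Notch ligand, rose by 0.36, both with groups apart. Of 27 TGF-beta and BMP genes, 4 were lower and 1 higher, or 18.5% called against 21.6% of all genes. The rise was Bmp4, from 8.31 to 8.76 at 3 weeks to 8.91 to 9.17 at 12 weeks (0.40 ± 0.07, limma adjusted p = 9.27e-05). Fst (follistatin), an activin antagonist, fell by 0.49 and Fstl1 by 0.24, both apart.

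In the VEGF and angiopoietin list 2 of 16 were higher and 2 lower, shares near those of all genes, and 1 was higher without replicate 3 of the 3-week rats. Esm1, an endothelial proteoglycan of tip cells, ran from 9.62 to 10.52 at 3 weeks and from 10.40 to 10.85 at 12 weeks, with a small overlap (0.68 ± 0.13, limma adjusted p = 0.000232; 0.59 in silica rats). Flt1, the VEGF receptor 1, fell from 5.27 to 5.62 to 4.76 to 5.00, near background, where 3 of 6 rats had a detected signal at 12 weeks (-0.58 ± 0.08), and Nrp1, a VEGF co-receptor, by 0.26. In the IGF and growth list 3 of 16 were lower and 2 higher, or 31.2% called against 21.6% of all genes. Besides Dlk1 and Ghrl these were Cdkn1c, an imprinted cell cycle inhibitor (-0.50 ± 0.10, groups apart), Igfbp2 (-0.35) and Igf1r (0.29). Igfbp2 and Igf1r each lost their call in 7 of the 12 fits that left out 1 rat, replicate 5 of the 3-week rats among them. Of 32 cell cycle and DNA replication genes, 1 was lower and 0 higher, or 3.12% called.

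Metabolic and chaperone genes showed small differences. Of 28 oxidative phosphorylation genes 8 were lower and 0 higher, against 10.2% and 11.4% of all genes, and 5 were lower without replicate 4 of the 12-week rats. The falls were small, as for the Rieske protein Uqcrfs1 (-0.23 ± 0.04) and the complex I subunit Ndufs1 (-0.19 ± 0.05). The list's median was -0.06 and turned to 0.03 above all genes under both median scalings. Of 21 heat shock and chaperone genes 7 were higher and 1 lower, or 38.1% called against 21.6% of all genes, with a median of 0.09 that was above all genes under each scaling. Among them were Hsp90aa1 (0.34 ± 0.11), the endoplasmic reticulum chaperone Hspa5 (0.21 ± 0.04) and the small heat shock protein Hspb1 (0.24 ± 0.05). Hsp90aa1 lost its call without replicate 1, 3 or 4 of the 3-week or 2, 5 or 6 of the 12-week rats. Without replicate 3 of the 3-week rats 4 were higher. Of 23 genes of xenobiotic and aldehyde metabolism 5 were higher and 2 lower, or 30.4% called against 21.6% of all genes. Cyp2e1, the ethanol-inducible P450, ran from 8.89 to 9.51 at 3 weeks and from 9.37 to 9.97 at 12 weeks (0.54 ± 0.12, limma adjusted p = 0.00108). Sult1a1, a phenol sulfotransferase, rose by 0.38 and Adh1c, an alcohol dehydrogenase, fell by 0.42, both with groups apart and both called the same way in silica rats.

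Airway defence genes and chemokines changed in both directions. Of 26 chemokines 4 were lower and 2 higher, or 23.1% called against 21.6% of all genes; 2 were lower without replicate 4 of the 3-week rats and 1 was higher without replicate 6 of the 12-week rats. Cxcl12, which retains leukocytes and progenitors, fell by 0.43 ± 0.08 with groups apart, and Ccl21, a lymphatic chemokine, rose by 0.30 ± 0.09 with groups apart, a call lost without replicate 6 of the 12-week rats. Cx3cl1 (fractalkine) ran from 10.51 to 11.06 at 3 weeks and from 10.25 to 10.56 at 12 weeks (-0.42 ± 0.11, limma adjusted p = 0.00378), while it differed by 0.22 in silica rats. That difference was called (0.64, adjusted p = 0.023). Pigr, the receptor that carries IgA across epithelium, behaved alike, with 11.53 to 12.21 at 3 weeks and 11.13 to 11.48 at 12 weeks (-0.47 ± 0.11) against 0.14 in silica rats (adjusted p of the difference 0.0266). Ccl19 (-0.94 ± 0.35, adjusted p = 0.0494) and the antiprotease Slpi (-0.49 ± 0.16, adjusted p = 0.0271) were not called without replicate 4 of the 3-week rats (-0.61 and -0.31). Slpi also lost its call without replicate 1 of the 12-week rats, and Ccl19 in 8 of the 12 fits that left out 1 rat. In that rat Mcpt10, a mast cell protease, was also the highest, at 6.36 against 4.94 to 5.43 in the other 3-week rats. Of 12 MHC class II genes limma called 0, with 4 at an unadjusted p under 0.05. Of 26 interferon response genes 2 were higher and 2 lower, or 15.4% called.

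**Figure D4:**
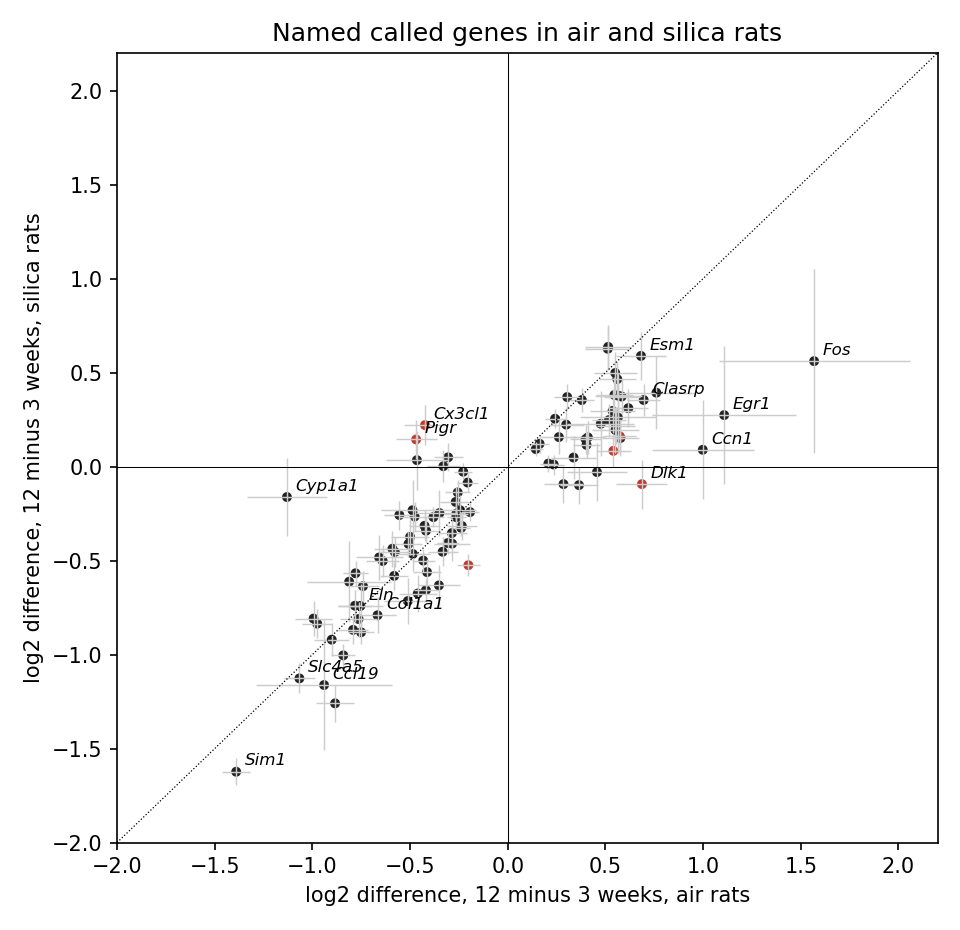
Difference between 12 and 3 weeks (log2) in air rats (horizontal axis) and silica rats (vertical axis) for the 99 named called genes, with SE bars in grey; the dotted line marks equal differences, and the 6 genes in red have a called difference between the arms. Sim1, Slc4a5, Eln and Col1a1 lie near the line, and Fos, Egr1, Ccn1, Dlk1 and Cyp1a1 lie near 0 on the silica axis or well off the line; Dlk1 was not detected in silica rats.

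Marker genes of most lung cell types gave few calls, and over all genes 11.4% were higher and 10.2% lower. In bulk RNA, fewer cells of a type and less RNA per cell cannot be told apart. Fibroblast markers gave 5 lower and 0 higher of 16, and 3 lower without replicate 6 of the 3-week rats, a list that holds Col1a1, Col1a2, Col3a1 and Lum and is not a separate observation. The mean level over these 16 ran from 9.71 to 9.89 at 3 weeks and from 9.55 to 9.65 at 12 weeks. Smooth muscle and pericyte markers gave 2 lower and 1 higher of 14, and 1 lower without replicate 3 of the 3-week rats, with Actg2, the enteric-type smooth muscle actin, down by 0.51 ± 0.12 and groups apart. Type II pneumocytes gave 1 higher (Dlk1) of 13 and type I pneumocytes 2 higher and 2 lower of 15, among them the water channel Aqp5 (0.24 ± 0.05) and Emp2 (0.16 ± 0.05). Club and secretory cells gave 1 higher, Scgb1a1 by 0.14 ± 0.04, and 0 lower of 10, while the other 9 differences were negative and the list's median was -0.18. Scgb3a1, a secretory protein of the larger airways, ran from 10.0035 to 12.07 at 3 weeks and from 7.42 to 11.23 at 12 weeks, overlapping and not called (-2.25 ± 0.95, adjusted p = 0.0864), though called when replicate 3 of the 12-week rats was left out (-2.71) or the 12 air arrays were fitted alone (-2.24). In silica rats 7 of the 10 members of the club and secretory list were lower and 2 higher, against 16.1% and 15.1% of all genes there. Endothelial cells gave 1 higher (Tmem100) and 2 lower of 18, alveolar macrophages 1 lower of 15, and T cells 1 higher of 17. NK and cytotoxic cells gave 4 higher and 0 lower of 18, against 11.4% and 10.2% of all genes, with the granule protease Gzmb up by 0.40 ± 0.08 and Faslg by 0.41 ± 0.09. A further called member was detected on 7 of the 36 arrays, all at 12 weeks. It passed the detection filter through those arrays alone, which partly fixed its direction. The count was 3 without replicate 4 of the 3-week rats and 2 among genes detected on all 12 air arrays, which tests fewer genes. In silica rats 2 of the list were higher, against 15.1% of all genes there, and its median was 0.06. The difference from the air rats was called for neither Gzmb nor Faslg (adjusted p = 0.166 and 0.224). The list's median was 0.18 and stayed above all genes under each scaling.

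**Figure D5:**
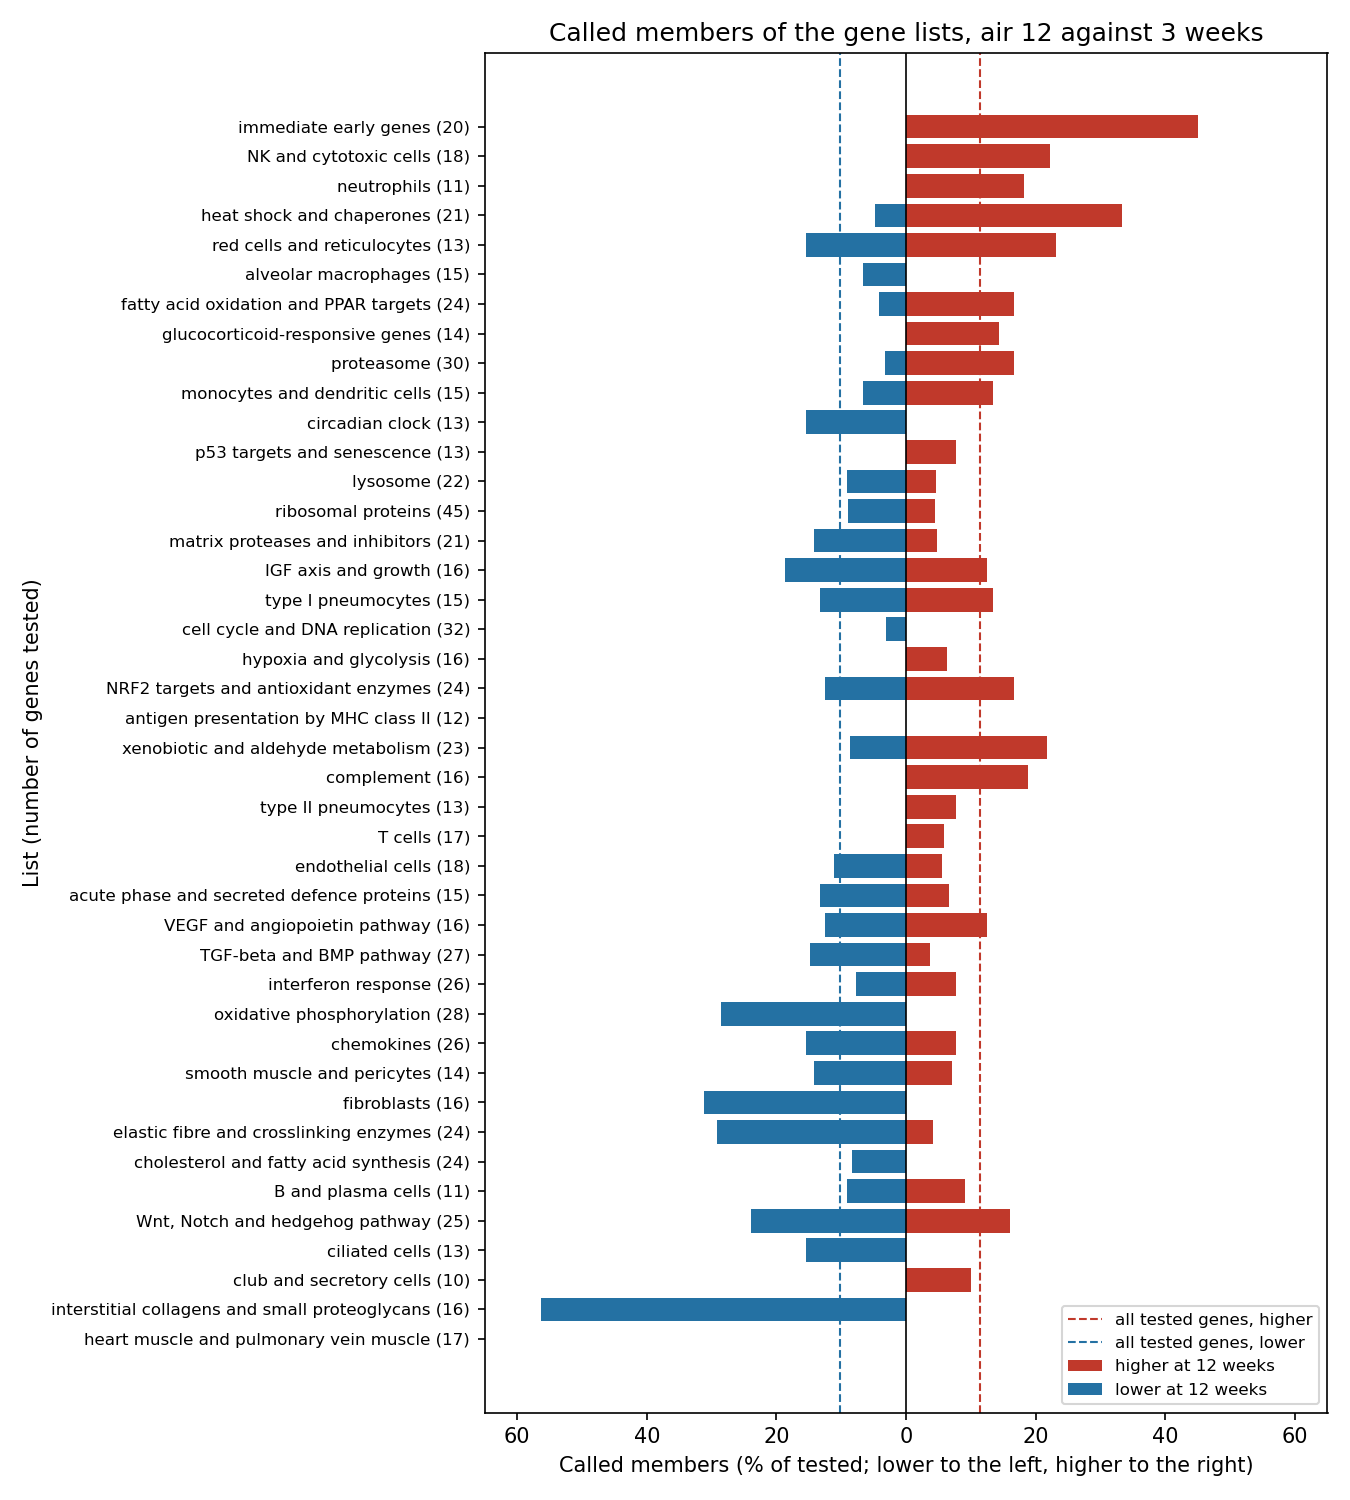
Share of tested members called higher (red, right) or lower (blue, left) at 12 weeks for the 42 gene lists with 10 or more genes tested, ordered by their median difference, with the shares of all tested genes (11.4% and 10.2%) as dashed lines. Immediate early genes have the longest bar to the right and interstitial collagens the longest to the left, while heart muscle and MHC class II have none.

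Traces of other tissues were measured as well. Heart muscle genes, which rat pulmonary veins also express, varied widely between rats: Myh6, the atrial myosin heavy chain, ran from 4.63 to 11.72 at 3 weeks and from 4.48 to 10.47 at 12 weeks, and Myl7 from 5.10 to 11.79 and from 4.69 to 10.29. Of the 17 genes of the list limma called 0, with 2 at an unadjusted p under 0.05, and their median difference was -0.64. The mean level over the list was 5.18 to 8.15 at 3 weeks and 5.21 to 7.24 at 12 weeks; its part in the falls above was not tested. Of 13 red cell genes 3 were higher and 2 lower, against 11.4% and 10.2% of all genes. The signs were opposite for Alas2, the first enzyme of haem synthesis in red cells (0.55 ± 0.12), and Slc4a1, the anion exchanger (-0.58 ± 0.07). Of 5 airway basal and keratinised cell genes 3 were lower, against 10.2% of all genes. They were Krt17 (-0.51), Krt4 (-0.41) and Sprr1a (-0.38), each with groups apart and also called in silica rats. Krt17 and Krt4 are dim probes, with mean levels of 5.07 and 5.21. In the authors' values the differences of the 3 genes were -0.11, -0.09 and -0.24. At 12 weeks 3 of the 6 air rats had a detected Krt17 signal.

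Clock genes were examined since earlier work on these same arrays had met them. Collection times are not given in the sources used here. Of 13 tested, 2 were lower and 0 higher, against 10.2% and 11.4% of all genes, and both calls were at dim probes. Cry2 was detected on 6 of the 36 arrays, 4 of air and 2 of silica rats, all at 3 weeks. It passed the detection filter through those arrays alone, which partly fixed the direction of its change. Under the reported background correction its fall was at least 1.15-fold, and its difference was -0.12 in the authors' values. Clock was detected on 1 of the 12 air arrays and 7 of all 36. The strongly rhythmic members did not pass the test. Per1 ran from 7.55 to 8.48 at 3 weeks and from 7.49 to 8.89 at 12 weeks (0.49 ± 0.28, adjusted p = 0.201), Per2 differed by 0.30 (adjusted p = 0.128), Nr1d1 by 0.19, Dbp by 0.05 and Bmal1 by -0.10.

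Genes whose levels ran most like those of the largest changes were sought by Pearson correlation over the 12 air arrays, which share the week and the array run, so that any gene with a clean week difference scores high. For Eln these were Mrps17 (r = 0.962), Lpin1 (0.948) and Nkiras2 (0.947). For Sim1 they were Acrbp (0.977), Arhgap31 (0.974) and Ctrl (0.970), for Cyp1a1 Sumo2 (0.975), Kbtbd3 (0.973) and Mmel1 (0.962), for Tmem100 Abcd3 (0.979), Duox2 (0.962) and Ccl27 (0.948), and for Dlk1 Ifi27 (0.934), Apoe (0.924) and Fbxl19 (0.912). No other collagen or elastic fibre gene was among the 3 most alike to Eln.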

How the data were processed

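Lung RNA of 36 rats was measured on Illumina BeadChips, of which the 12 air arrays at 3 and 12 weeks are described. Per the file headers, the deposited table gives for each of 21792 probes the intensity (mean bead signal, not normalised) and a detection p-value. A second deposited table holds the authors' processed log2 values; per the submitters' processing notes, BeadStudio, lumi and limma were used, and their settings are not given in the sources used here. Each of the 36 columns of that table matched its own raw column.

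From the intensities, the background mean and SD (medians over arrays 47.3 and 8.59) were estimated from the 21204 probes whose detection p lay on the steps of 825 negative controls, and normexp correction, an offset of 16, quantile normalisation over the 36 arrays and log2 followed. Probes detected (p under 0.05) on at least 6 arrays were kept, 1 probe per gene with the highest mean. This left 9078 of 13315 named genes; 13388 probes had a gene symbol. One limma model (version 3.58.1, R 4.3.3) with 6 group means over 36 arrays (30 residual degrees of freedom) gave all tests, with Benjamini-Hochberg adjustment over all tested genes and a call at adjusted p under 0.05. A fold for a gene not detected in a group is a lower bound against the dimmest detected signal or its own value. It holds only under the reported background correction. In simulated data for this comparison over 9078 genes, 67, 67 and 66 genes were changed by 0.3, 0.6 and 1 (log2). Of these 77.6%, 97.0% and 98.5% were recovered, with 10 false calls. The data themselves gave 1959 calls, so these rates need not hold for the reported calls.

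Genes are named by these rules: the 15 largest called rises and falls without overlap, up to 5 called members and the first 3 tested members per list, all clock, collagen and elastic fibre genes, and the 3 genes most alike to each of the 30. The lists (54) and the members were chosen with earlier results of these data known. The labels give a number to each rat, and the 6 rats of a group are taken as replicates. The spread behind the p-values was pooled over the rats of all 6 groups, most of which are not described here. The number of arrays limits the precision. Alternatives were other background, scaling, filter, array set, array weights, a replicate block, leaving out each array and the authors' values.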

Additional observations from a re-analysis of the deposited data

Results flagged for a closer look

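In 22 of the 230 groups of 6 rats examined (the named genes at 3 and at 12 weeks), the highest or lowest rat lay far from the other 5 by Dixon's criterion; chance alone gives about 1 in 20. Among the 3-week rats, replicate 5 was the lowest for Mfsd13a (6.64), Or7g21 (5.51), Asip (4.97) and Aqp5 (10.79) and the highest for Lox (11.61). Replicate 4 was the highest for Ccl19 (10.33), Slpi (11.59) and Mcpt10 (6.36). Replicate 2 was the highest for Dusp1 (13.7) and Jun (9.37), and replicate 3 for Per1 (8.48) and Dkk2 (5.55). Replicate 1 was the lowest for Tmem100 (5.60). Among the 12-week rats, replicate 2 was the highest for Btrc (7.38), Sparc (12.5) and Emp2 (9.14) and the lowest for Scgb1a1 (14.38). Replicate 6 was the highest for Ccl21 (9.23) and Bmp4 (9.17), and replicate 3 for Slpi (10.53). Replicate 1 was the lowest for Col15a1 (9.04) and replicate 4 for Tac1 (6.32).

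Of 115 named genes, 6 had a week difference that was called as unlike in silica and air rats (limma interaction, adjusted over all genes). Over all 9078 tested genes this held for 260 (2.86%). Many of the 115 were named for a called air difference, which is a term of this test. The count is therefore no result about the named genes. The value for silica minus air rats is given here. It was -0.78 for Dlk1 (adjusted p = 0.0238), which was not detected on any silica array, so that this value compares air rats with background. It was -0.46 for Gnl1 (0.0427), -0.41 for Btrc (0.049) and -0.32 for Col6a1 (0.0307). It was 0.64 for Cx3cl1 (0.023) and 0.61 for Pigr (0.0266); both were called lower at 12 weeks in air rats and were not called in silica rats.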

How the results depend on the processing

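With each array left out in turn, 810 to 1033 genes were higher and 801 to 917 lower, with 9 to 15 rises and 51 to 62 falls of 1.5-fold or more. The other settings gave 703 to 1279 higher and 639 to 1289 lower, within 1.5 times the reported 1036 and 923, apart from both median scalings. Under median scaling they became 5598 and 393, with 235 and 20 of 1.5-fold or more, and in silica rats 3373 and 526; of the called genes 93.4% were then higher, against 52.9%. Median scaling over the tested genes, added after seeing the data, gave 1211 higher and 1728 lower, with 207 falls of 1.5-fold or more. Falls of 1.5-fold or more numbered 8 with the background from all probes, 9 (and 5 rises) without background correction, 4 (and 5 rises) in the authors' values and 24 among the 7215 genes detected on all 12 arrays, which tests fewer genes. The 12 arrays alone gave 14 rises of 1.5-fold or more, with 842 genes higher and 811 lower in all. Of the named called genes, Ccl19, Egr1, Ier2, Igf1r, Igfbp2, Junb, Lox, Mcpt10, Ogn, Slpi and Zfp36 were not called there. Of 99 named called genes, 58 kept their call under all settings in which they were tested, 34 lost it under at least 1 and 14 changed sign. Some dim genes, among them Sim1, Slc4a5 and Mmp2, were not detected on all 12 air arrays. They were not tested in the setting that asks for this, and so had 23 settings and not 24. Under median scaling the signs of Col5a1 (0.0734), Col5a2 (0.10), Col6a1 (0.16), Ogn (0.09), Sparc (0.0544), Fn1 (0.30), Postn (0.32), Fbln5 (0.0745), Mfap2 (0.0138), Lox (0.12), Loxl1 (0.10), Timp2 (0.0346), Uqcrfs1 (0.14), Ndufs1 (0.15), Fstl1 (0.14) and Nrp1 (0.0815) turned, each below or near the shifted median of 0.27; Fn1 and Postn were not called before. The other causes were not tested. With the replicate number as a replicate block, 1017 were higher and 930 lower. Same-numbered rats of the 2 weeks correlated between -0.28 and 0.36, none best with its own number, so the numbers pair nothing. Week, age and array batch cannot be told apart, and probes near background give only bounds.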
